A study of Mus musculus with 4 samples.

Results

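Hox genes encode homeodomain transcription factors and lie in 4 clusters, HoxA to HoxD, in which each gene carries a paralog number that follows its place along the cluster. The members were all probe sets that the array annotation assigns to 1 gene alone with a Hoxa, Hoxb, Hoxc or Hoxd symbol followed by a number. This rule found 48 probe sets for 33 genes among the 45101 probe sets and 18193 singly named genes of the array, 13 genes with paralog numbers 1 to 5 and 20 with numbers 6 to 13. Hox genes outside these 33 are not analysed here. 3 probe sets shared between neighbouring Hox genes were left out by the rule. 22 genes had 1 probe set and 11 had several, and each gene was read from its brightest probe set unless another is named.

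The samples were male mouse germ cells (gonocytes) at 2 days post partum, enriched from the testis on magnetic beads through THY1, a surface protein of these cells. They were kept for 8 h without serum, growth factors or feeder cells in medium with ethanol, the vehicle, or with 100 nM retinoic acid (RA). There were 2 vehicle samples and 2 RA samples, each on 1 Affymetrix Mouse Genome 430 2.0 array. Strain and genotype are not given in the sources used here, and no label says whether different animals or cultures gave the 4 samples, so the p-values reflect the spread among these 4 samples alone, part or all of which may be technical.

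In embryos RA is a classic regulator of Hox transcription: it binds receptor dimers of RAR and RXR on DNA, and genes at the low-numbered end of a cluster usually answer earlier and to less RA than those at the high-numbered end. Hox proteins set regional identity along the body axis and act together with the cofactors of the Pbx, Meis and Pknox families. Polycomb and trithorax complexes keep the clusters silent or active. Stromal, vascular and blood cells of adult organs also keep Hox transcripts that reflect their origin.

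Values are array signals in linear units, and changes are differences of log2(signal + 5), RA minus vehicle, each with its SE from limma and n = 2 per group. A fold on this scale understates the change of dim genes. The median signal was between 26.6 and 29.5 on the 4 arrays, and their number limits the precision of every value. The known RA targets Stra8, Cyp26a1 and Rarb were 10.2-fold, 8.47-fold and 6.46-fold higher on the RA arrays (limma, adjusted p = 0.397, 0.232 and 0.232, in that order). The germ cell markers Ddx4 (1305 and 1289 with vehicle, 1300 and 1121 with RA) and Dazl (1606 and 1603, 1514 and 1296) were bright on all arrays. All 10 germ cell markers with a probe set had negative changes with RA. Of the 10, 4 had both RA arrays below both vehicle arrays, beside 12.6% of all genes. An unadjusted p under 0.05 (limma) was found for 2, both lower, beside 1.29% of all genes. These were Zbtb16, a regulator of spermatogonial self-renewal, at 701 and 699 with vehicle against 368 and 174 with RA (−1.45 ± 0.33), and Ret, the GDNF receptor kinase, at 514 and 562 against 254 and 277 (−1.004 ± 0.19). Markers of other testis cells were there too. All 10 stromal and peritubular markers were above background on every array. Their summed signal was 10688 and 13900 on the vehicle arrays, 10870 and 14703 on the RA arrays. Of 10 Sertoli markers 8 were above it, while Amh and Fshr were at background, and the sums were 3949 and 5321 against 4412 and 5768. Wt1, a Sertoli cell transcription factor, was the 1 member of that list with an unadjusted p under 0.05 (limma). It was higher with RA, beside 1.44% of all genes at such a p, at 238 and 207 against 353 and 308 (0.56 ± 0.20). Hox signals from germ cells and from these cells cannot be told apart in such mixed RNA, nor can fewer cells of a type be told from less RNA per cell.

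Many Hox genes were detectable in these preparations, in all 4 clusters and at low and high paralog numbers. The background level, 14.4 signal units, was the 95th percentile of 124 probe sets of olfactory, vomeronasal and trace amine receptors and keratin-associated proteins, genes of other tissues taken to be silent here. Of the 33 Hox genes, 21 were above it on all 4 arrays, 5 were at or below it on all 4, and 7 were mixed. Over all 18193 genes on the array, 67.7% were above it on all 4 arrays, 22.4% were at background on all 4 and 9.87% were mixed. The share of Hox genes above background lay near that of all genes. Among paralogs 1 to 5, 9 of 13 genes were above background throughout, and among paralogs 6 to 13, 12 of 20. By cluster the counts were 4 of 9 for HoxA, 6 of 9 for HoxB, 6 of 7 for HoxC and 5 of 8 for HoxD. The genes at background on every array were Hoxa13, Hoxb1, Hoxb7, Hoxd11 and Hoxd12, with signals from 0.884 (Hoxa13) to 11.9 (Hoxb1). Many of the detected genes were dim: against a stricter level, the 99th percentile at 38.2, only 11 were above on all arrays and 11 were at background on all. The shares of all genes at that level are not given here, so these counts have no comparison.

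**Figure D1:**
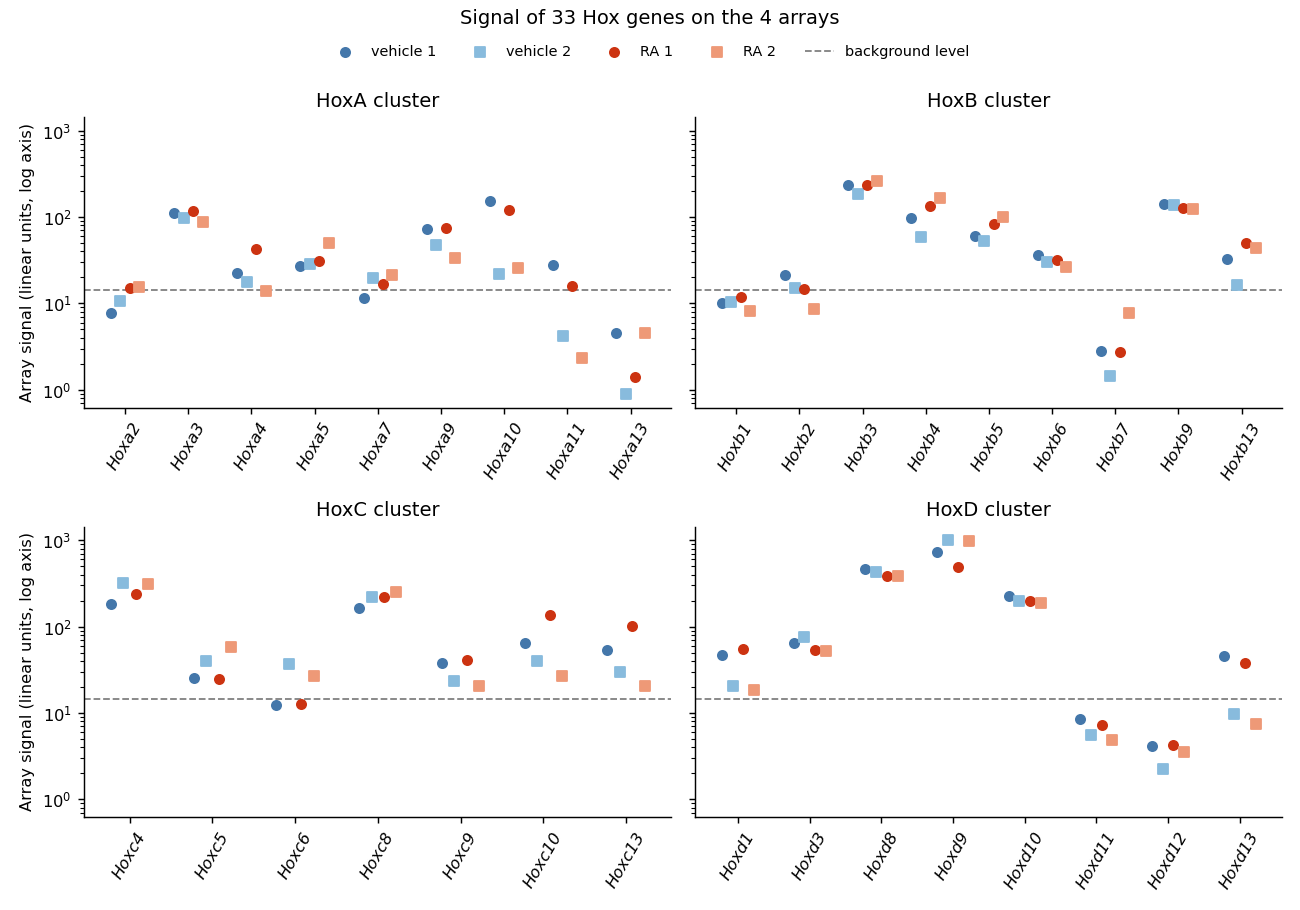
Signal of each of the 33 Hox genes (brightest probe set) on the vehicle arrays (blue) and the RA arrays (red), circles for replicate 1 and squares for replicate 2, on a log axis, with the background level of 14.4 as a dashed line. Hoxb4, Hoxb5 and Hoxb13 have both red points above both blue points, while Hoxa10, Hoxa11 and Hoxd13 have both circles far above both squares; heights of different genes come from different probes and cannot be compared.

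RA against vehicle moved no Hox probe set past the threshold. Of the 29 Hox probe sets that passed the filter on low signal, 0 had an adjusted p under 0.05 in limma, beside 0.00% of the 27022 probe sets tested, and 4 had an unadjusted p under 0.05, 3 higher and 1 lower with RA, beside 1.12% and 1.65% of all probe sets. Read by gene, 25 of the 33 Hox genes passed the filter. Of these, 3 had an unadjusted p under 0.05 with higher values (limma), beside 1.44% of 13018 genes, and 0 had one with lower values, beside 1.29%. The 3 were Hoxb4, Hoxb5 and Hoxb13, all of the HoxB cluster. They were also the Hox genes with separated groups and a log2 change of at least 0.5, which 2.53% of all genes showed upwards, while 0 Hox genes showed it downwards, beside 2.74%. Without vehicle replicate 2 the number was 0 and without RA replicate 2 it was 5, so single arrays decided it. The smallest p that an exact permutation test (two-sided) could reach for 1 gene with this design is 0.333.

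Hoxb4, a regulator studied in hindbrain patterning and in blood stem cells, had the largest change of any Hox gene that passed the filter. Its signals were 98.1 and 59.0 with vehicle and 136 and 167 with RA. The RA arrays were both higher than either vehicle array. The level with RA was 1.92-fold higher (log2 change 0.94 ± 0.29; limma, unadjusted p = 0.0135, adjusted p = 1.0). Between the arrays numbered 1 the log2 difference was 0.45, and between those numbered 2 it was 1.42. The second probe set of Hoxb4 was at background on every array.

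Hoxb5, the next gene in the cluster, known for roles in lung and enteric nerve development, stood at 60.2 and 52.4 with vehicle and at 83.0 and 101 with RA. The groups did not overlap, and the level with RA was 1.58-fold higher (log2 change 0.66 ± 0.26; limma, unadjusted p = 0.0368, adjusted p = 1.0). Hoxb13, the last gene of HoxB and best known in the prostate and tail region, read 32.6 and 16.5 against 50.6 and 43.6. It was 1.83-fold higher (log2 change 0.87 ± 0.36; limma, unadjusted p = 0.041, adjusted p = 1.0). Its lower vehicle value, on vehicle 2, lay just above the common background level. It was below the 95th percentile of the genes taken to be silent on that array alone, 19.4. The place of Hoxb13 at the far end of the cluster separates it from Hoxb4 and Hoxb5.

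Among the other HoxB genes no common direction was seen. Hoxb3, on the other side of Hoxb4, read 233 and 183 with vehicle against 235 and 265 with RA. Both RA values were the higher ones, although RA 1 exceeded vehicle 1 by a log2 difference of only 0.0080, and the change was 0.26 ± 0.22. Its second probe set pointed the other way, at −0.33 ± 0.34, with 21.9 and 33.6 against 17.1 and 24.6. Hoxb2 stood at 21.4 and 14.9 against 14.7 and 8.65, near background and below the filter, with both RA values the lower ones. Hoxb6 showed 36.6 and 29.8 against 32.1 and 26.3 (−0.16 ± 0.30). Hoxb9 gave 140 and 138 against 127 and 125 (−0.13 ± 0.21), without overlap. Hoxb1, a HoxB gene that RA is known to switch on in the hindbrain, stayed at background, with signals between 8.18 and 11.9.

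The HoxD cluster showed small differences in the opposite direction. Hoxd8 was lower on both of its probe sets: 470 and 432 with vehicle against 388 and 386 with RA on the brighter one (log2 change −0.22 ± 0.19), and 340 and 365 against 266 and 243 on the other (−0.46 ± 0.19; limma, unadjusted p = 0.0444, adjusted p = 1.0). On both probe sets the groups did not overlap. Hoxd3 stood at 65.1 and 75.0 with vehicle and at 54.0 and 51.5 with RA, again with no overlap (−0.37 ± 0.26). Hoxd10, a limb and spinal cord patterning gene, gave 226 and 200 against 196 and 186 (−0.15 ± 0.20). Hoxd9, by contrast, had overlapping groups, at 733 and 1003 against 493 and 967 (−0.31 ± 0.33). Of these changes, that of the second Hoxd8 probe set had an unadjusted p under 0.05, and with equal array medians the groups of Hoxd10 overlapped.

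**Figure D2:**
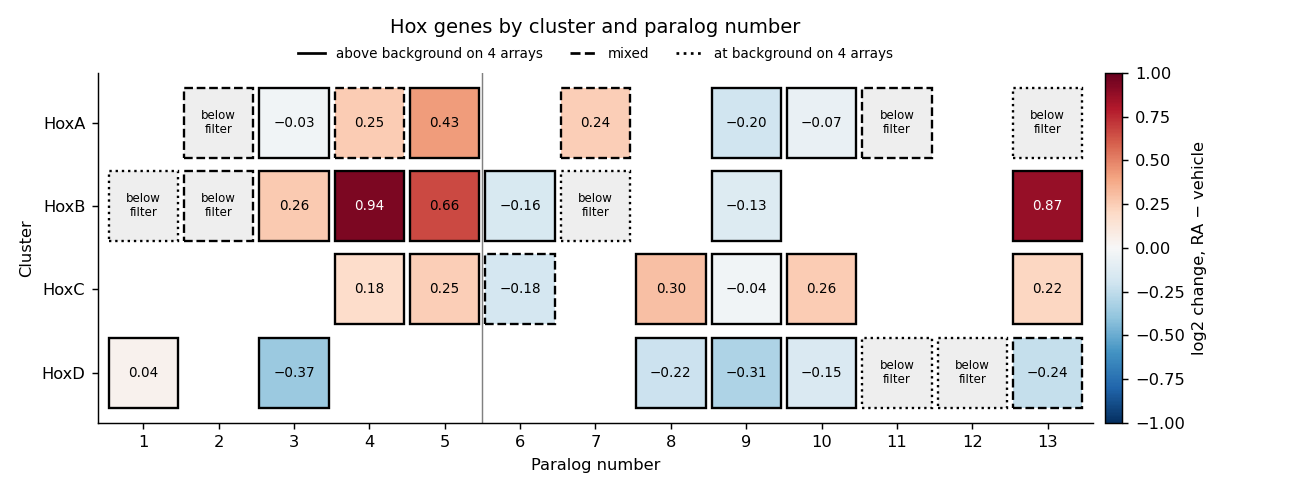
Each Hox gene by cluster (rows) and paralog number (columns), coloured and labelled by its log2 change with RA where it passed the filter on low signal. Solid, dashed and dotted frames mark genes above background on all 4 arrays, mixed and at background on all 4; the warmest squares are Hoxb4 (0.94), Hoxb13 (0.87) and Hoxb5 (0.66), and HoxD 8, 9, 10 and 13 are all negative.

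Promoter sequences were in the RefSeq table used here for 19 of the 33 genes, as 21 windows of 250 bases before the annotated start (GRCm38.p6). They are shown for each gene that passed the filter, had separated groups and is in that table: Hoxb4 and Hoxa5 with higher, and Hoxd3, Hoxd8 and Hoxd10 with lower values on both RA arrays. Capitals mark a half-site of the kind RAR and RXR bind (AGGTCA, its variant AGTTCA, the variant GGGTCA or the variant GGTTCA), searched on both strands, so that TGACCT stands for AGGTCA on the other strand.
Hoxb4, chr11:96318017-96318266, + strand: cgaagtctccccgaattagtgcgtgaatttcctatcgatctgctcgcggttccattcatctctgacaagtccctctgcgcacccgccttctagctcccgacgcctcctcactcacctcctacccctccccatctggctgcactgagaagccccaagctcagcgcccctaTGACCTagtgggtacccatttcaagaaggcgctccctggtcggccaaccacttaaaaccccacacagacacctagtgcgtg
Hoxa5, chr6:52204588-52204837, − strand: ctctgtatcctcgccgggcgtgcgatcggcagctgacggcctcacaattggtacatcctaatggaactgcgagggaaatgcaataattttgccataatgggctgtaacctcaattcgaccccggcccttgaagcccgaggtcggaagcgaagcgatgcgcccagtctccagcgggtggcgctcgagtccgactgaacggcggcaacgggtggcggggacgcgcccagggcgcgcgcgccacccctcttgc
Hoxd3, chr2:74711743-74711992, + strand: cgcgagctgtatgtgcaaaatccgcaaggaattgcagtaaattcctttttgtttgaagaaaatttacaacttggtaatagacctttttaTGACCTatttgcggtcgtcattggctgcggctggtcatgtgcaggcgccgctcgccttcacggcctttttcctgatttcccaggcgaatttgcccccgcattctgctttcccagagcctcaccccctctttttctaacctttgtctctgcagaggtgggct
Hoxd8, chr2:74704365-74704614, + strand: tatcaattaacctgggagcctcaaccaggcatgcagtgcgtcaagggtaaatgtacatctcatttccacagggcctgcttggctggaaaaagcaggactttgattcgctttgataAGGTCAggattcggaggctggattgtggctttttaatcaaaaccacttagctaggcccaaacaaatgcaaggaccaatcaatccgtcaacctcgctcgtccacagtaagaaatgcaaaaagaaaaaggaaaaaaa
Hoxd10, chr2:74691641-74691890, + strand: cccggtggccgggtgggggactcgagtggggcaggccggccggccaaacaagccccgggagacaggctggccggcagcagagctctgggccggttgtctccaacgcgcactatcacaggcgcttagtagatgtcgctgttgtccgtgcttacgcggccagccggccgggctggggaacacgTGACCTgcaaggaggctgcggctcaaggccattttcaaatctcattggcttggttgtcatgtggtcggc
The windows of Hoxb4, Hoxd3, Hoxd8 and Hoxd10 each hold 1 such half-site and that of Hoxa5 holds 0. The first base of the half-site lies at position −81 from the start for Hoxb4, −161 for Hoxd3, −135 for Hoxd8 and −69 for Hoxd10. A half-site was found in 8 of the 21 Hox windows and in 38.6% of all 32851 windows in the table, shares of like size. Direct repeats of half-sites with spacers of 1, 2 or 5 bases, the arrangements known as DR1, DR2 and DR5, were found in 0 of the 21 Hox windows and in 0.164%, 0.174% and 0.0883% of all windows. The letters TGATNNAT, a core of sites bound by Hox and Pbx proteins together, occurred on either strand in 3 Hox windows and in 7.68% of all. The Hox windows had a median GC content of 59.2% and 13 CpG sites, beside 52.4% and 6 over all windows. These windows do not cover enhancers, where many RA response elements of Hox clusters are known to lie.

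By paralog class, the medians had opposite signs. The median log2 change was 0.249 over the 10 genes numbered 1 to 5 that passed the filter, with 8 positive and 2 negative. It was −0.134 over the 15 genes numbered 6 to 13, with 5 positive and 10 negative. Over all 25 Hox genes it was 0.0436, and over all 13018 genes 0.0149. A stricter filter, at the 60th percentile of signal, turned the median over all Hox genes to −0.052. The median of the higher class turned to 0.235 when RA replicate 2 was left out, to 0.0696 when vehicle replicate 1 was, and to 0.210 when a gene's probe sets were averaged. That of the lower class was 0.110 when averaged so. Within clusters the signs did not always differ. The medians for the lower and higher class were 0.253 and −0.073 in HoxA, and 0.660 and −0.134 in HoxB. In HoxC they were level, at 0.215 and 0.215, and in HoxD both were negative, at −0.166 and −0.229. Each rests on few genes, from 2 to 5. The difference between the classes has no test here.

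The RA arrays were both higher than either vehicle array in 5 of the 25 Hox genes, beside 14.2% of all genes, and below them in 4, beside 12.6%. The 5 were Hoxa5, Hoxb3, Hoxb4, Hoxb5 and Hoxb13, and the 4 were Hoxb9, Hoxd3, Hoxd8 and Hoxd10. The shares lie near those of all genes. With equal array medians the counts were 6 and 2, and over all genes that setting changed the split from 1843 above and 1635 below to 2678 above and 1007 below. By cluster, the median log2 change was 0.46 for HoxB, 0.22 for HoxC, 0.11 for HoxA and −0.23 for HoxD. Single arrays moved these medians, with the filter applied anew each time, so the genes could differ. HoxB was 0.18 without RA replicate 2, over 7 genes instead of 6, as Hoxb2 then passed the filter. Without vehicle replicate 2 it was 0.28 over 6 genes, and HoxD was −0.11 without vehicle replicate 1. Leaving out vehicle replicate 1 gave 0.087 for HoxC and 0.23 for HoxA, and leaving out vehicle replicate 2 gave 0.46 and −0.0034. The HoxA median was −0.32 with RA replicate 1 left out (6 genes) and 0.33 with RA replicate 2 left out (7 genes). Of the 4 clusters, HoxA thus changed sign with single arrays, and HoxB, HoxC and HoxD changed in size. HoxB was 0.29 when a gene's probe sets were averaged (6 genes). It was 0.26 without _x_at and _s_at probe sets, where Hoxb2 again made 7 genes. HoxA was 0.24 when averaged (5 genes) and −0.073 with the 60th percentile filter (3 genes). It was 0.056 with a pseudocount of 20 and 0.18 with equal array medians (6 genes each). HoxD was −0.15 with equal array medians.

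**Figure D3:**
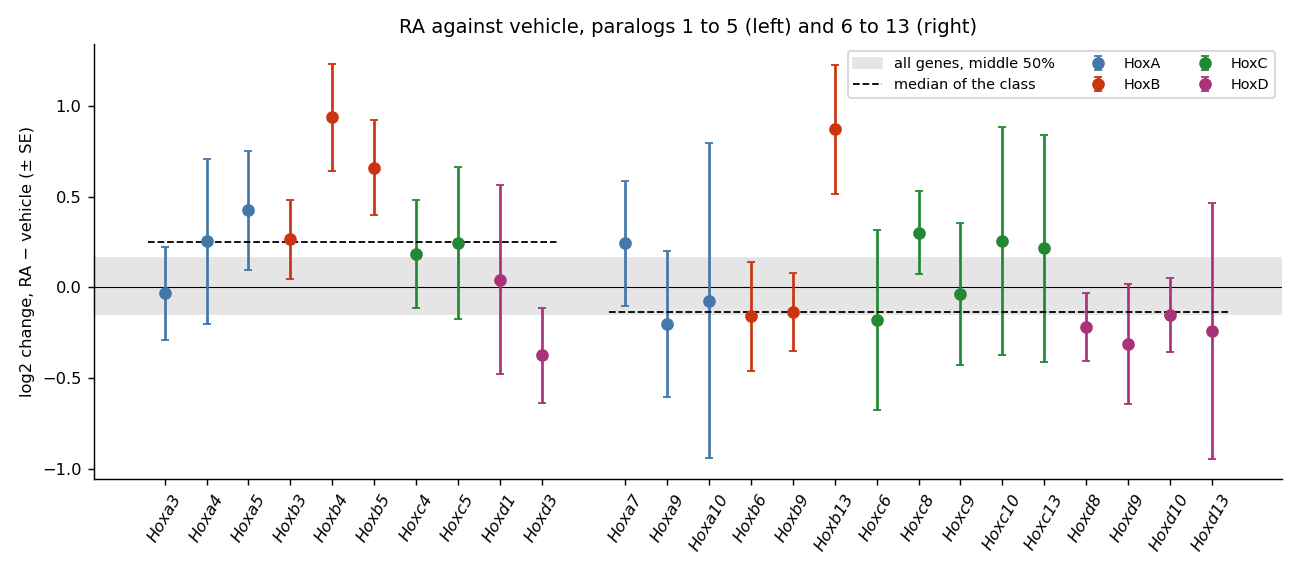
Log2 change with RA (points) and its SE (bars, n = 2 per group) for the 25 Hox genes that passed the filter, paralogs 1 to 5 on the left and 6 to 13 on the right, coloured by cluster. Dashed lines are the class medians, 0.249 and −0.134, and the grey band holds the middle 50% of all genes; most bars cross 0, and those of Hoxb4, Hoxb5 and Hoxb13 lie above the band.

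In the HoxA cluster Hoxa5, a gene of lung and neck patterning, had RA values of 30.8 and 50.04 above vehicle values of 27.3 and 28.9 (log2 change 0.43 ± 0.33). Its second probe set, at 32.5 and 26.8 against 39.1 and 24.7, overlapped between the groups (0.07 ± 0.33). Hoxa3, needed for the thymus and parathyroid, did not separate on either of its 2 probe sets above background, with 111 and 97.0 against 119 and 87.0 on the brighter one (−0.03 ± 0.26). Hoxa2, a hindbrain gene, lay around background and below the filter: 7.69 and 10.8 with vehicle, 14.99 and 15.6 with RA. Its RA values were the higher ones, at a level where the array carries little information. Hoxa4 showed 22.5 and 17.9 against 42.2 and 13.9, and Hoxa7 showed 11.6 and 19.7 against 16.9 and 21.1, both with overlapping groups.

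In the HoxC cluster 0 of 7 genes had separated groups, beside 14.2% of all genes upwards and 12.6% downwards. With equal array medians Hoxc8 separated upwards, as did 20.6% of all genes. Hoxc4 stood at 181 and 320 with vehicle and at 241 and 311 with RA (log2 change 0.18 ± 0.30). Hoxc8, which patterns the thorax, gave 164 and 222 against 221 and 253 (0.30 ± 0.23), with the RA 1 and vehicle 2 arrays nearly level. Hoxc5 had 25.2 and 39.7 against 25.02 and 58.2. Hoxc6 was above background only on the arrays numbered 2, at 36.8 and 27.0, with 12.2 and 12.6 on those numbered 1. These 4 genes show lower signals on the vehicle 1 array than on vehicle 2, a spread as large as or larger than the difference between the treatments.

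Several high-numbered Hox genes differed more between arrays of different replicate number than between treatments. Hoxa10, required for uterine and limb development, had signals of 152 on vehicle 1 and 120 on RA 1 but only 22.03 on vehicle 2 and 25.6 on RA 2. Its change with RA was −0.07 ± 0.87. Hoxa11, its neighbour, ran in the same way, with 28.0 and 15.9 on the arrays numbered 1 and 4.20 and 2.32 on those numbered 2. Hoxd13, a gene of the digits and genitalia, gave 45.4 and 37.9 on the arrays numbered 1 and 9.84 and 7.49 on the others (−0.24 ± 0.71). For all 3 genes both arrays numbered 1 were the higher ones, and on the arrays numbered 2 Hoxa11 and Hoxd13 were at background.

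Hoxc10 and Hoxc13, a hair and nail gene, were brightest on RA 1. Hoxc10 read 64.2 and 39.6 with vehicle and 134 and 26.6 with RA (0.26 ± 0.63). Hoxc13 read 52.8 and 30.04 against 102 and 20.4 (0.22 ± 0.62). The 2 genes thus rank the 4 arrays in the same order. Hoxd1 (46.5 and 20.7 against 55.6 and 18.2), Hoxa9 (72.1 and 48.0 against 75.3 and 33.6) and Hoxc9 (38.0 and 23.6 against 40.8 and 20.5) were also higher on the arrays numbered 1. Markers of macrophages and leukocytes ran the other way, all 7 above background, with summed signals of 1361 on vehicle 1 and 1016 on RA 1 against 2695 on vehicle 2 and 2247 on RA 2. They were not alone in this. The 5 Leydig cell markers with a probe set summed to 1419 on vehicle 1 and 1555 on RA 1 against 2590 on vehicle 2 and 2033 on RA 2. The stromal and Sertoli sums given above were also higher on the arrays numbered 2. The germ cell list, with 9 of 10 members above background throughout, summed to 7299 and 6996 with vehicle, 6324 and 5284 with RA. Their part in the Hox values was not tested. The labels do not say what the numbers stand for.

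**Figure D4:**
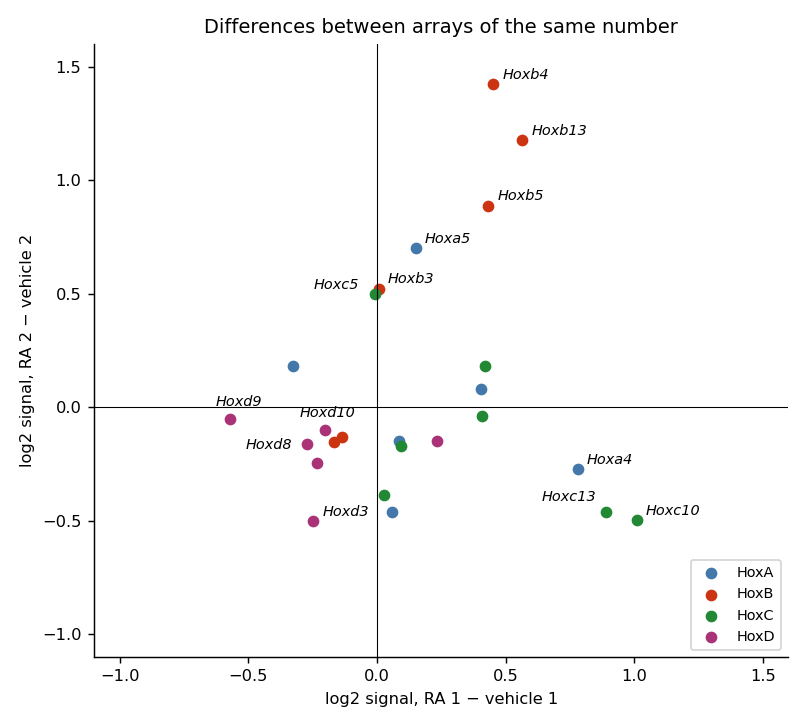
For the 25 Hox genes that passed the filter, the log2 difference between RA 1 and vehicle 1 (horizontal) and between RA 2 and vehicle 2 (vertical), coloured by cluster. Hoxb4 (0.45 and 1.42), Hoxb13 (0.56 and 1.18) and Hoxb5 (0.43 and 0.89) lie in the upper right, HoxD genes other than Hoxd1 in the lower left, and Hoxc10 (1.01 and −0.50) and Hoxc13 (0.89 and −0.46) change sign between the numbers.

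Genes that work with or on the Hox clusters were read beside them. All 8 Hox cofactor genes of the Meis, Pbx and Pknox families with a probe set were above background on every array. The share of all genes was 67.7%. Of the 8, 0 passed an adjusted p of 0.05 in limma. An unadjusted p under 0.05 (limma) was found for 0, beside 1.44% of all genes higher and 1.29% lower. With so few genes, 0 lies near those shares. The median log2 change of the 8 was −0.080, with 2 positive and 6 negative. Pknox2 had the smallest p, at 180 and 230 with vehicle against 122 and 176 with RA (−0.46 ± 0.26). Among 10 upstream regulators, 5 passed the filter. Their median log2 change was −0.154, with 1 positive and 4 negative. Rarb, an RA receptor and itself an RA target, was the one with an unadjusted p under 0.05 (limma), beside 1.44% of all genes higher. It read 14.9 and 6.56 with vehicle against 95.4 and 90.5 with RA. Of the 10, 4 were at background on all arrays, beside 22.4% of all genes. They were Cdx1 and Cdx4, which activate Hox genes in the embryo, and the receptor genes Rara and Rxrg. The receptor genes Rarg, Rxra and Rxrb were above background on all arrays.

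Polycomb and trithorax genes were detected throughout: 19 of 19 with a probe set were above background on every array, beside 67.7% of all genes. None had an adjusted p under 0.05 in limma. An unadjusted p under 0.05 (limma) was found for 0, beside 1.44% of all genes higher and 1.29% lower. With 19 genes, 0 lies near those shares. The median log2 change of the 19 was −0.0043, with 8 positive and 11 negative. Suz12, a core subunit of the complex that methylates histone H3 at silent Hox clusters, stood at 725 and 591 with vehicle and at 847 and 742 with RA (0.27 ± 0.21). Its groups did not overlap. Of the 19, 5 had both RA arrays above both vehicle arrays, Suz12 among them, beside 14.2% of all genes. Both RA arrays lay below in 2, beside 12.6%. The genes flanking the clusters gave 6 of 10 above the filter, 1 positive and 5 negative. Skap2, beside the low-numbered end of HoxA, read 311 and 241 against 295 and 357 (0.24 ± 0.22), and Skap1, beside that of HoxB, read 43.6 and 43.5 against 42.5 and 41.3 (−0.05 ± 0.28). Evx1, Evx2, Ttll6 and Calcoco2 were at background on every array. Of the antisense transcripts of the clusters Hoxd3os1 was above background on all arrays, at 52.0 and 83.3 against 44.6 and 57.3 (−0.35 ± 0.32), and the groups overlapped.

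RNA quality measures of the arrays moved with the treatment too. The ratio of 3′ to 5′ signal of Actb read 1.72 and 1.73 on the vehicle arrays, 2.08 and 2.32 on the RA arrays, and that of Gapdh was 1.56 and 1.47 against 1.85 and 2.00. Endothelial markers were all 7 above background, with sums of 308 and 280 on the vehicle arrays, 347 and 412 on the RA arrays. Of the 7, 3 separated upwards, beside 14.2% of all genes. Vehicle 2 had the lowest and RA 2 the highest of these sums, the order seen in Hoxb4 and Hoxb5. The RA targets Stra8 and Cyp26a1 had that order too. Stra8 read 188 and 53.3 with vehicle against 783 and 1477 with RA, and Cyp26a1 read 30.9 and 19.9 against 164 and 375. Rarb was lowest on vehicle 2 but highest on RA 1. Whether the 3′ to 5′ ratios or the endothelial signals bear on the HoxB and HoxD values was not tested.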

How the data were processed

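Per the labels, 75 ng of total RNA went into NuGEN Ovation V2 amplification, and GCOS 1.2 read the arrays. The authors deposited linear intensities, 1 for each probe set and sample; how they summarised probes and scaled arrays is not stated. Trimmed means (2% off each tail) lay between 124.5 and 124.7 on the 4 arrays, so no further normalization was done. After 64 control probe sets were left out, values were taken as log2(intensity + 5), and probe sets with a mean signal at or above the 40th percentile were tested with limma 3.58.1 in R 4.3.3 (lmFit, eBayes with an intensity trend, no term for the replicate number), two-sided, with Benjamini-Hochberg adjustment over all 27022. Residual degrees of freedom were 2, and the prior added 5.71. The fit was also run on simulated arrays with independent noise. The changes added there were larger than that of any Hox gene in the main fit and sat in bright probe sets. That run therefore does not show how well changes of the size seen in Hox genes are found. A gene was read from the brightest probe set that names it alone. Symbols came from the platform annotation, updated by Entrez ID (34741 matched), and promoters from RefSeq (GRCm38.p6). The members, lists and tests were chosen with earlier results of these data known. Array values are given for every Hox gene above background on at least 1 array, and full statistics for those with an unadjusted p under 0.05, or a log2 change of at least 0.5 with separated groups. Of the lists of cofactors, regulators, polycomb and trithorax genes and cluster neighbours, the member with the smallest p is named; their other named members, and the cell type markers, were chosen after their values were known. Alternatives covered normalization, pseudocount, filter, variance model, a replicate block, each array left out, probe set choice and background level. Figures were drawn with matplotlib 3.10.9.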

Additional observations from a re-analysis of the deposited data

How the results depend on the processing

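The count of 0 Hox probe sets past an adjusted p of 0.05 held in limma under each alternative except the replicate block, which gave 1, Hoxb4 (limma, adjusted p = 0.00186). That fit called 558 probe sets of 27022, or 2.06%. Its residual degree of freedom was 1, and its variances came from the fitted trend alone. Arrays of the same number deviated together from their group means (r = 0.53 across probe sets), but with 2 pairs and no word in the labels this does not establish a pairing. Leaving out 1 array gave 0 to 5 Hox genes higher and 0 to 1 lower at an unadjusted p under 0.05, 6 to 12 with both groups separated upwards and 7 to 13 downwards, since 1 array fewer makes separation easier. The class medians then ran from 0.181 to 0.388 for paralogs 1 to 5, and from −0.220 to 0.235 for 6 to 13. The filter was applied anew with each array left out, so the genes behind these medians could differ. The stricter filter left 3 genes separated upwards, equal array medians left 2 downwards, leaving out _x_at and _s_at probe sets gave 1 lower at an unadjusted p under 0.05, and averaging a gene's probe sets gave a median of 0.110 for paralogs 1 to 5. At the 99th percentile background, 11 Hox genes were above and 11 at background; at the 90th percentile, or with a level for each array, 3 were at background. Direction turned with equal array medians for Hoxa3 (0.045), Hoxa10 (0.0041) and Hoxc9 (0.038), with quantile normalization for Hoxc9 (0.026), and on averaging a gene's probe sets for Hoxa3 (0.11), Hoxa9 (0.21), Hoxa10 (0.24) and Hoxb3 (−0.034). It also turned when 1 array was left out, with ranges of −0.24 to 0.18 for Hoxa3, −0.41 to 0.91 for Hoxa4, −0.044 to 0.53 for Hoxa7, −0.73 to 0.33 for Hoxa9, −1.34 to 1.197 for Hoxa10, −0.22 to 0.59 for Hoxc4, −0.29 to 0.78 for Hoxc5, −0.82 to 0.46 for Hoxc6, −0.46 to 0.38 for Hoxc9, −0.82 to 1.33 for Hoxc10, −0.82 to 1.25 for Hoxc13, −0.65 to 0.74 for Hoxd1, −0.79 to 0.17 for Hoxd9 and −1.13 to 0.65 for Hoxd13. Hoxb4 ran from 0.59 to 1.28, Hoxb5 from 0.52 to 0.80 and Hoxb13 from 0.47 to 1.27. The cause of these shifts was not tested. Signals near background limit the dim genes.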
